A study of Mus musculus with 14 samples.

Results

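The genes described here belong to the unfolded protein response of the endoplasmic reticulum (ER) and to the integrated stress response that acts through the transcription factor ATF4. They were taken by symbol from a list of 46 genes, 21 of the ER branch and 25 of the ATF4 branch. Array rows were matched to 42 of them, 19 and 23, out of 19505 named genes measured in liver. Pdia4, Manf, Gdf15 and Pycr1 were not analysed here.

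All 14 livers came from male mice of C57BL/6 background, homozygous for floxed genes of AMPK alpha1 and alpha2 (Prkaa1 and Prkaa2), the catalytic subunits of an energy-sensing kinase. The mice were 6 weeks old when a high-fat diet (60% of calories) began and 10 weeks old when they received AAV8 virus, while the labels give an age of 4 months. The control group (6 samples) received AAV8-TBG-empty vector and the knockout group (8 samples) AAV8-TBG-Cre. For the next 3 weeks both groups were given metformin (50 mg/kg each day), and livers were collected after a fast of 16 h. The TBG promoter drives Cre in hepatocytes, so other liver cells keep the floxed genes. Every comparison is thus between livers exposed to diet, virus, metformin and fasting, and untreated livers were not analysed here. Nothing in the labels ties each sample to a separate animal. The p-values given here therefore reflect only how much these samples vary, which may be technical.

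Misfolded protein in the ER lumen is sensed by the membrane proteins IRE1 (gene Ern1), ATF6 and PERK (Eif2ak3). IRE1 splices the mRNA of Xbp1, and spliced XBP1 and cleaved ATF6 switch on chaperones, folding enzymes and the machinery that retrieves failed proteins for degradation. PERK, like the kinases HRI, PKR and GCN2, phosphorylates the translation factor eIF2, which slows most protein synthesis but favours translation of ATF4 mRNA. ATF4 in turn activates genes of amino acid synthesis and uptake, redox control and feedback. In liver, the ER branch serves the heavy secretory load of hepatocytes. Array values report mRNA per transcript cluster, so neither Xbp1 splicing nor ATF4 translation can be read from them.

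Response elements linked to the 2 branches were searched in the promoters, which makes no use of the array values. The members are known genes of these responses, so a higher share of matches among them is no independent evidence. Many genes of either branch held no match. RefSeq promoter windows (GRCm38.p6) were given for 41 of the 46 genes, and the 250 bases before each start were searched on both strands. The ER stress response element (ERSE), bound by ATF6 with NF-Y, was searched as CCAAT, 9 bases of any kind, then CCACG. It was found in 8 of 18 ER branch genes and in 0 of 23 ATF4 branch genes, against 0.130% of 27025 genes with a window (35 genes). The 8 genes were Hspa5, Hsp90b1, Calr, Canx, Pdia6, Dnajc3, Creld2 and Syvn1. The shorter ERSE-II, searched as ATTGG, 1 base of any kind, then CCACG, was found in Herpud1 and in 0.0370% of all genes. The XBP1 element UPRE, searched as TGACGTGG, was found in 0 genes of either branch and in 0.603% of all genes. The C/EBP-ATF response element (CARE), through which ATF4 acts, was searched as TGATGNAA. It was found in 7 of 23 ATF4 branch genes (Asns, Chac1, Atf3, Slc7a11, Vldlr, Nupr1 and Pycr1) and in 1 of 18 ER branch genes (Herpud1, apart from its ERSE-II), against 3.91% of all genes. These are matches of letters and not measured binding sites.

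ERSE matches of 4 chaperone genes, of Creld2 and the ERSE-II match of Herpud1 are printed on the strand of the gene, with the match in capitals and 15 bases on each side. The first base of each match lay at -65 in Hspa5, -107 in Hsp90b1 (a further match lay at -212), -162 in Calr, -145 in Canx, -126 in Creld2 and -52 in Herpud1, counted from the transcription start. The stretches were chr2:34772010-34772058 (+ strand), chr10:86705518-86705566 (-), chr8:84847060-84847108 (-), chr11:50325785-50325833 (-), chr15:88819505-88819553 (+) and chr8:94386362-94386402 (+).
Hspa5: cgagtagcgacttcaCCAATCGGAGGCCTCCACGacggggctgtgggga
Hsp90b1: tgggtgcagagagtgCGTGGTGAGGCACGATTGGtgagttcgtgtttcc
Calr: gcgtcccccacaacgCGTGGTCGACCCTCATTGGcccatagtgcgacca
Canx: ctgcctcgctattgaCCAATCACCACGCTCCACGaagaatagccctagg
Creld2: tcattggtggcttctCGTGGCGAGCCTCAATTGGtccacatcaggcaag
Herpud1: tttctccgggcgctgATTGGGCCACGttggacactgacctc

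CARE matches of 5 ATF4 branch genes follow in the same form. They began at -23 in Asns, -193 in Chac1, -200 in Vldlr, -110 in Nupr1 and -66 in Slc7a11, whose window held a further match at -47 on the opposite strand. The stretches were chr6:7693210-7693247 (-), chr2:119351034-119351071 (+), chr19:27216805-27216842 (+), chr7:126625558-126625595 (-) and chr3:50443657-50443694 (-).
Asns: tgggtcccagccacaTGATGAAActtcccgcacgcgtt
Chac1: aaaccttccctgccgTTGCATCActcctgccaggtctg
Vldlr: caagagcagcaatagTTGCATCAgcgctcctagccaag
Nupr1: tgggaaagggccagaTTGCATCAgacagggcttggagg
Slc7a11: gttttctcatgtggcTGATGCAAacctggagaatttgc

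By correlation the 14 arrays formed 2 sets, which no label names, each with 3 control and 4 knockout samples: control 1 to 3 and knockout 1 to 4 in set 1, the others in set 2. Correlations over all rows were 0.988 to 0.994 within sets and 0.951 to 0.963 across them. The set therefore entered the limma model as a term, and each difference below is the knockout level less the control level in log2 units ± SE (n = 6 and 8), with p-values adjusted over all named genes by Benjamini-Hochberg with a threshold of 0.05. Prkaa2 fell by 1.13 ± 0.08 (adjusted p = 1.92e-06) and Prkaa1 by 0.67 ± 0.13 (adjusted p = 0.0302). For Prkaa1, leaving out 1 array ended the call for 8 of the 14 arrays (adjusted p up to 0.0770). Hepatocyte markers averaged 12.56 to 12.65 in every array of set 1 and 13.00 to 13.09 in every array of set 2, in both groups.

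No gene of either branch passed the test between knockout and control livers. Of the 19 ER branch genes 0 passed the threshold in limma, and of the 23 ATF4 branch genes 0 passed, against 0.702% of all named genes (137 of 19505; 0.431% higher and 0.272% lower). At an unadjusted p under 0.05 there were 2 ER genes (Xbp1 lower, Calr higher) and 7 ATF4 genes, against 10.4% of all genes (5.53% higher and 4.83% lower). The 7 were Atf5, Sesn2, Cth and Phgdh with 4 positive differences, and Chac1, Vldlr and Cebpg with 3 negative ones. Without the set term limma also called 0 members, against 0% of all genes, and at an unadjusted p under 0.05 there were 1 ER gene (Xbp1) and 3 ATF4 genes (Chac1, Vldlr and Cth), against 3.36%. Differences ran from -0.28 to 0.29 in the ER branch and from -0.52 to 0.27 in the ATF4 branch, and no member differed by 1.5-fold or more.

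The intervals show how precisely each difference was measured in these samples, for 1 gene at a time and with the set term. Without that term some were wider, with an SE of 0.42 against 0.13 for Hyou1. The 95% interval of every one of the 42 members lay within 1 on the log2 scale of zero, that is, within a 2-fold change, and that of 37 members within 0.5. Among all genes 99.6% and 91.0% met these bounds. The farthest bound in the ER branch was 0.66 for Sdf2l1, and in the ATF4 branch it was -0.92 for Chac1. The median of the 19 ER differences was 0.06 with 13 positive, and that of the 23 ATF4 differences was 0.03 with 12 positive, against 0.00 and 50.6% positive over all genes. The ER median lay between 0.05 and 0.11 with any 1 array left out. The ATF4 median lay between -0.02 and 0.06, and it was negative without control 3, control 4, knockout 3, knockout 4 or knockout 5.

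**Figure D1:**
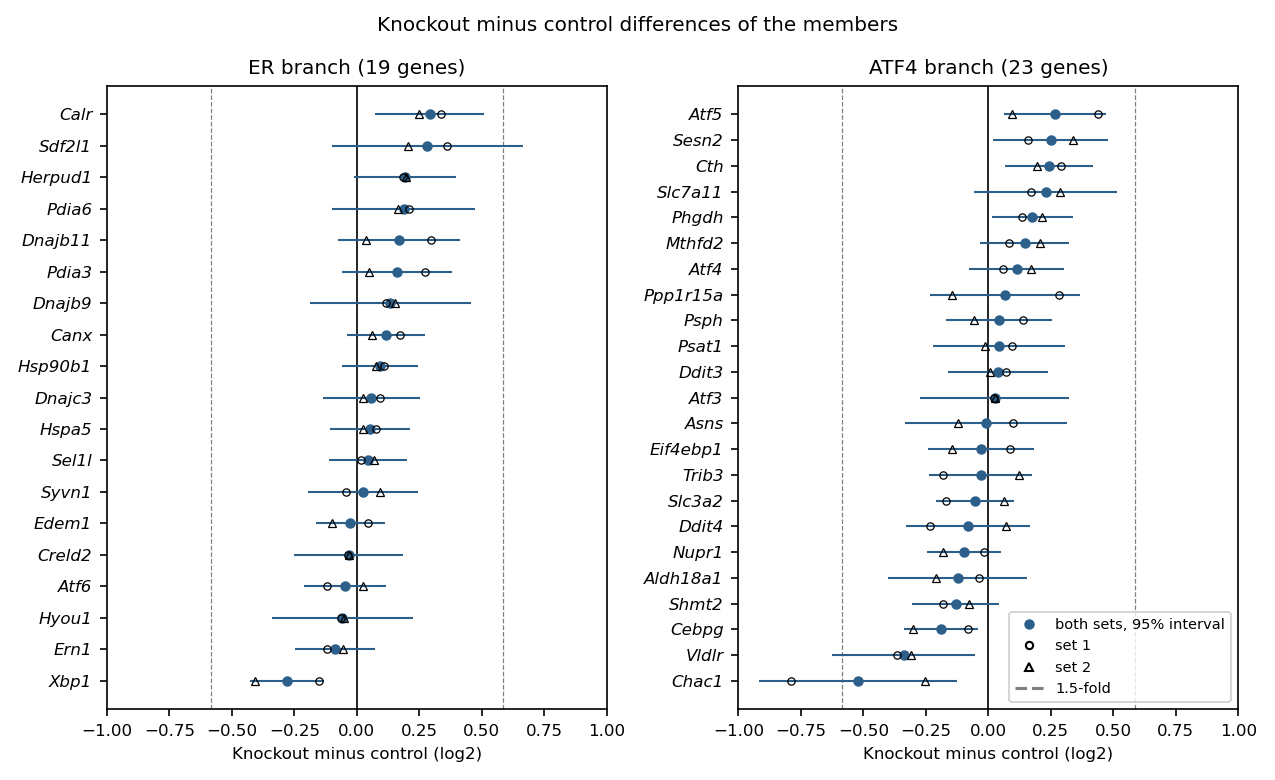
Knockout minus control difference (log2, horizontal axis) of each gene of the ER branch (left, 19 genes) and the ATF4 branch (right, 23 genes); filled circles and lines give the fit over both sets with its 95% interval, open circles set 1, open triangles set 2, and dashed lines a 1.5-fold change. All filled circles lie inside the dashed lines, with Xbp1 and Calr at the ends of the ER branch and Chac1 and Atf5 at the ends of the ATF4 branch.

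Ern1, Atf6 and Xbp1, the sensor genes and target among the members, had 3 negative differences, and Xbp1 came closest to the threshold of all members. Xbp1 encodes the transcription factor made active by IRE1. It stood at 10.85, 11.08 and 10.93 in the controls of set 1 against 10.80, 10.76, 10.79 and 10.85 in the knockout samples. In set 2 it stood at 11.21, 11.41 and 11.30 in controls against 10.89, 10.96, 10.91 and 10.84 in knockout samples. The groups did not overlap in set 2, and in set 1 control 1 (10.846) lay just below knockout 4 (10.849), so 7 of 8 knockout samples lay below every control of their set. The difference was -0.28 ± 0.07, or 82.4% of the control level (adjusted p = 0.0939), with -0.15 in set 1 and -0.41 in set 2. It kept its sign under all 29 alternatives, some of which cannot change the difference, and 22 of the 42 members kept theirs. Leaving out dim genes called it (adjusted p = 0.0430), as did a variance trend with robust estimation (adjusted p = 0.00439). With 1 array left out its adjusted p ranged from 0.0757 to 0.205, and over all alternatives it reached 1, without the set term.

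Ern1, the gene of IRE1 itself, ran in controls from 7.57 through a median of 8.39 to 9.01 and in knockout samples from 7.44 through 8.22 to 9.03. The groups overlapped in both sets, and the difference was -0.09 ± 0.08 (adjusted p = 0.770). Atf6 ran from 7.82 through 8.48 to 9.13 in controls and from 7.72 through 8.43 to 9.27 in knockout samples, with a difference of -0.05 ± 0.08 (adjusted p = 0.904). The wide ranges of both genes came from the array sets: the level of set 2 exceeded that of set 1 by 1.22 for Ern1 and by 1.20 for Atf6. The PERK gene Eif2ak3 differed by 0.02 ± 0.08 (adjusted p = 0.961).

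ER chaperones, cochaperones and lectins had 8 of 9 positive differences with a median of 0.12, and 0 of them passed. Hspa5 encodes BiP, the main HSP70 chaperone of the ER lumen and the classical readout of the response. It ran from 11.73 through 12.06 to 12.13 in controls and from 11.91 through 12.03 to 12.16 in knockout samples. In set 1, 3 of 4 knockout samples lay above every control, and in set 2 all knockout samples lay within the range of the controls. The difference was 0.05 ± 0.08 (adjusted p = 0.895; 95% interval -0.11 to 0.21), and it turned to -0.04 without control 1 and control 4. Hsp90b1, the ER form of HSP90 (GRP94), differed by 0.09 ± 0.07, and Hyou1, a large HSP70-like chaperone that recharges BiP, by -0.06 ± 0.13.

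Calr, the lumenal lectin chaperone calreticulin, had the largest positive difference of the members. Among the 3 controls of set 1 its mean was 11.13 ± 0.23 (SD), and among the 4 knockout samples 11.47 ± 0.16 (SD). In set 2 the control mean was 12.19 ± 0.32 (SD, n = 3) and the knockout mean 12.44 ± 0.10 (SD, n = 4). Only 4 of 8 knockout samples lay above every control of their set. The difference was 0.29 ± 0.10 (adjusted p = 0.281), and it was 0.17 without control 1 and control 4. Its membrane-bound relative Canx (calnexin) differed by 0.12 ± 0.07. Sdf2l1, a BiP cofactor, had a difference of similar size, 0.28 ± 0.18, with the widest spread of the branch (residual SD 0.385). It was 0.17 without control 1 and 0.09 without control 1 and control 4. The J-domain proteins that drive the BiP cycle differed by 0.17 ± 0.11 (Dnajb11), 0.13 ± 0.15 (Dnajb9) and 0.06 ± 0.09 (Dnajc3). That of Dnajb9 was -0.0049 without control 5 and 0.26 without control 6.

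Of the folding enzymes and the degradation genes, 0 of 3 and 0 of 4 passed. The disulfide isomerases Pdia3 and Pdia6 differed by 0.16 ± 0.10 and 0.19 ± 0.13, and Creld2, a secreted ER stress protein, by -0.03 ± 0.10. Herpud1, a membrane scaffold of ER-associated degradation, differed by 0.19 ± 0.10 (adjusted p = 0.525), with 0.19 in set 1 and 0.20 in set 2. All 4 knockout samples of set 1 lay above its controls, and in set 2 the groups overlapped. The mannosidase-like Edem1 (-0.03 ± 0.07), the adaptor Sel1l (0.04 ± 0.07) and its ubiquitin ligase partner Syvn1 (0.02 ± 0.10) lay near zero. Edem1 had the smallest residual SD of the branch, 0.0843. Genes with and without an ERSE had overlapping differences: the 8 with an ERSE had a median difference of 0.08 (-0.03 to 0.29), and the 9 measured genes with a window and no ERSE had 0.13 (-0.28 to 0.28).

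**Figure D2:**
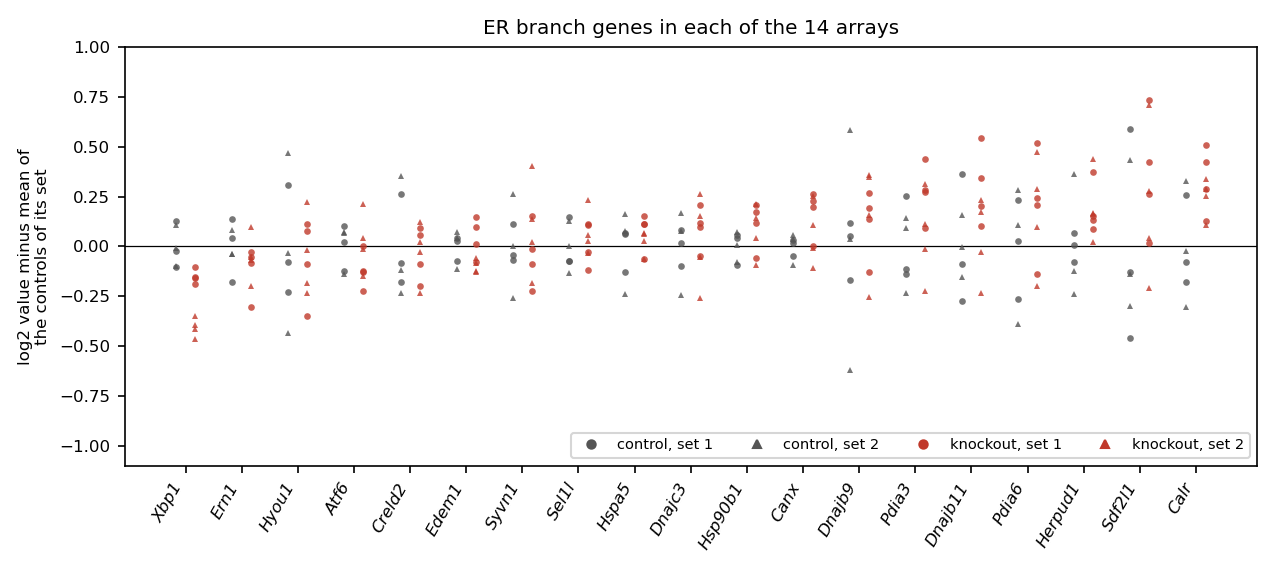
Value of each of the 19 ER branch genes in each of the 14 arrays, as log2 value minus the mean of the controls of its set (vertical axis); grey is control, red knockout, circles set 1 and triangles set 2, with genes ordered by their difference. Knockout and control points overlap for the chaperones, while for Xbp1 the knockout points of set 2 lie below all its controls and those of set 1 near or below its lowest control.

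In the ATF4 branch, Atf4 itself and its best known targets did not pass. Atf4 ran from 9.18 through a median of 9.60 to 10.25 in controls and from 9.31 through 9.76 to 10.10 in knockout samples. The groups overlapped in both sets, and the difference was 0.11 ± 0.09 (adjusted p = 0.730; 95% interval -0.08 to 0.30). Ddit3 encodes CHOP, the pro-apoptotic factor downstream of ATF4. It ran from 7.21 through 7.76 to 7.82 in controls and from 7.44 through 7.70 to 8.03 in knockout samples, with a difference of 0.04 ± 0.09 (adjusted p = 0.946). Asns, asparagine synthetase, ran from 5.96 through 6.34 to 7.25 and from 5.72 through 6.53 to 7.09. Its difference was -0.01 ± 0.15 (adjusted p = 0.995; 95% interval -0.33 to 0.31). Trib3, a pseudokinase that restrains ATF4, ran from 6.74 through 6.81 to 7.04 and from 6.51 through 6.75 to 7.29, with a difference of -0.03 ± 0.10 (adjusted p = 0.959). For Trib3 the sets had opposite signs, -0.18 and 0.12, without a call for the interaction of knockout and set (adjusted p = 0.998). That interaction was called for 0 of 42 members, and for 0% of all genes. At an unadjusted p under 0.05 it held for 0 members, against 4.83% of all genes.

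The other transcription factors of the branch had differences of both signs, and 0 passed. Atf5 is a relative of ATF4 linked to mitochondrial stress. In set 1 the mean was 10.08 ± 0.20 (SD, n = 3) for controls and 10.52 ± 0.10 (SD, n = 4) for knockout samples. In set 2 the means were 9.68 ± 0.03 (SD, n = 3) and 9.77 ± 0.22 (SD, n = 4). All 4 knockout samples of set 1 lay above its controls, but in set 2 the groups overlapped, and the difference was 0.27 ± 0.10 (adjusted p = 0.298). Cebpg, a dimer partner of ATF4, had its larger difference in set 2: -0.08 in set 1 and -0.30 in set 2, where all 4 knockout values (7.77, 7.91, 7.68 and 7.75) were below the controls (8.08, 8.02 and 8.13). Its difference was -0.19 ± 0.07 (adjusted p = 0.311). Atf3 (0.03 ± 0.14) and Nupr1 (-0.10 ± 0.07), both stress-induced nuclear factors, did not pass. For Nupr1 all 4 knockout samples of set 2 lay below its controls, with a difference of -0.18 in that set.

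Of the feedback and growth-control genes, 0 of 5 passed. Ppp1r15a encodes GADD34, the phosphatase subunit that reverses eIF2 phosphorylation, and differed by 0.07 ± 0.14, with 0.28 in set 1 and -0.15 in set 2. Without knockout 4, its highest array, the difference was -0.02. Sesn2, a leucine-sensing inhibitor of mTORC1, differed by 0.25 ± 0.11 (adjusted p = 0.424), with 4 of 8 knockout samples above every control of their set. Ddit4 (REDD1), another mTORC1 inhibitor, differed by -0.08 ± 0.12, and Eif4ebp1, the translation repressor 4E-BP1, by -0.03 ± 0.10.

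**Figure D3:**
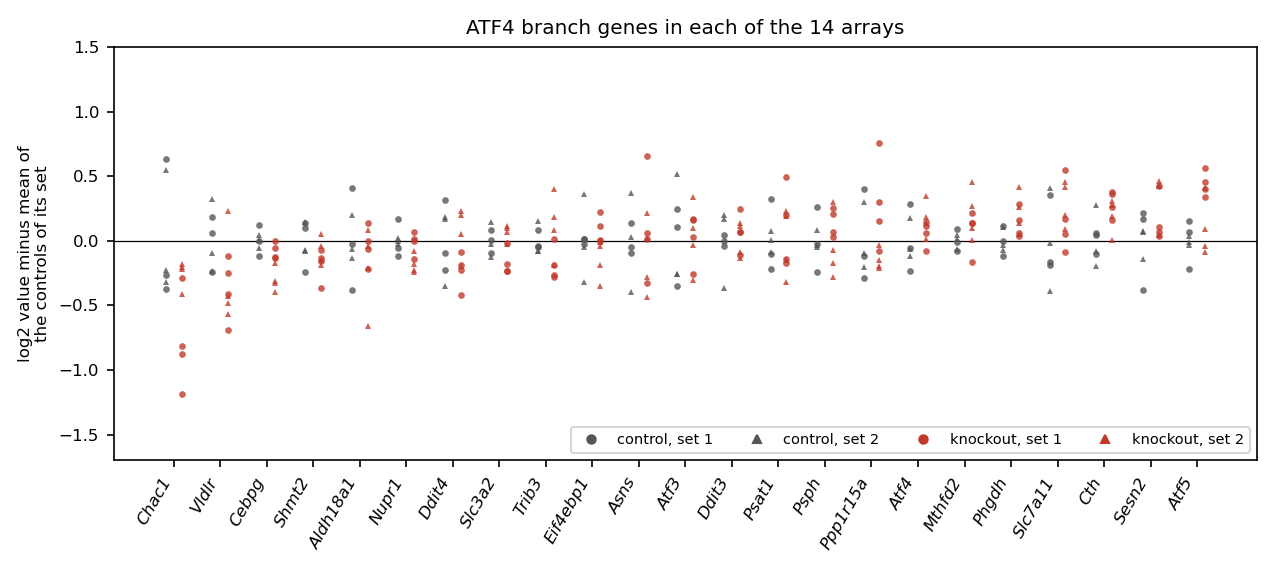
Value of each of the 23 ATF4 branch genes in each of the 14 arrays, as log2 value minus the mean of the controls of its set (vertical axis); colours and symbols are grey for control, red for knockout, circles for set 1 and triangles for set 2. Chac1 shows 2 high control points, control 1 and control 4, and low knockout points in set 1, while Atf4, Ddit3 and Asns have knockout points on both sides of zero.

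Chac1, a gamma-glutamylcyclotransferase that degrades glutathione, had the largest difference of all members. It stood at 5.80, 4.90 and 4.79 in the controls of set 1 against 3.98, 4.87, 4.35 and 4.29 in knockout samples, and at 5.38, 4.60 and 4.51 in the controls of set 2 against 4.41, 4.61, 4.65 and 4.62. Control 1 and control 4 were the highest arrays of their sets, and the other controls of set 2 lay among the knockout samples. The difference was -0.52 ± 0.19, or 69.6% of the control level (adjusted p = 0.290). It was -0.35 without control 1 and -0.23 without control 1 and control 4. The gene was dim, as were Psat1 and Phgdh, all with means of 5 or below, and the background level of these arrays is not known here.

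Cth, the cystathionine lyase that makes cysteine by transsulfuration, had the smallest p of the ATF4 branch. It ran from 11.76 through 11.90 to 12.24 in controls and from 11.98 through 12.19 to 12.28 in knockout samples. In all, 6 of 8 knockout samples lay above every control of their set, and the groups overlapped through control 4, the highest control. The difference was 0.24 ± 0.08 (adjusted p = 0.268), with 0.29 in set 1 and 0.20 in set 2. Slc7a11, the cystine importer that feeds glutathione synthesis, differed by 0.23 ± 0.13 and its partner subunit Slc3a2 by -0.05 ± 0.07. Vldlr, the VLDL receptor, stood at 6.10, 6.53 and 6.40 in the controls of set 1 against 6.09, 6.23, 5.94 and 5.66, and at 6.37, 6.78 and 6.23 in those of set 2 against 5.90, 6.69, 5.98 and 6.04. Of its 8 knockout samples, 6 were below every control of their set, and the difference was -0.34 ± 0.14 (adjusted p = 0.370).

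The serine and one-carbon enzymes, which ATF4 controls together in many cells, had 4 of 5 positive differences and 0 calls. In pathway order, Phgdh differed by 0.18 ± 0.08 (adjusted p = 0.424), Psat1 by 0.04 ± 0.12 and Psph by 0.04 ± 0.10. The mitochondrial folate enzymes Shmt2 and Mthfd2 differed by -0.13 ± 0.08 and 0.15 ± 0.08. Aldh18a1, which starts proline synthesis, differed by -0.12 ± 0.13. The 6 measured genes with a CARE had a median difference of -0.05 (-0.52 to 0.23), and the 15 with a window and no CARE had 0.04 (-0.19 to 0.27).

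**Figure D4:**
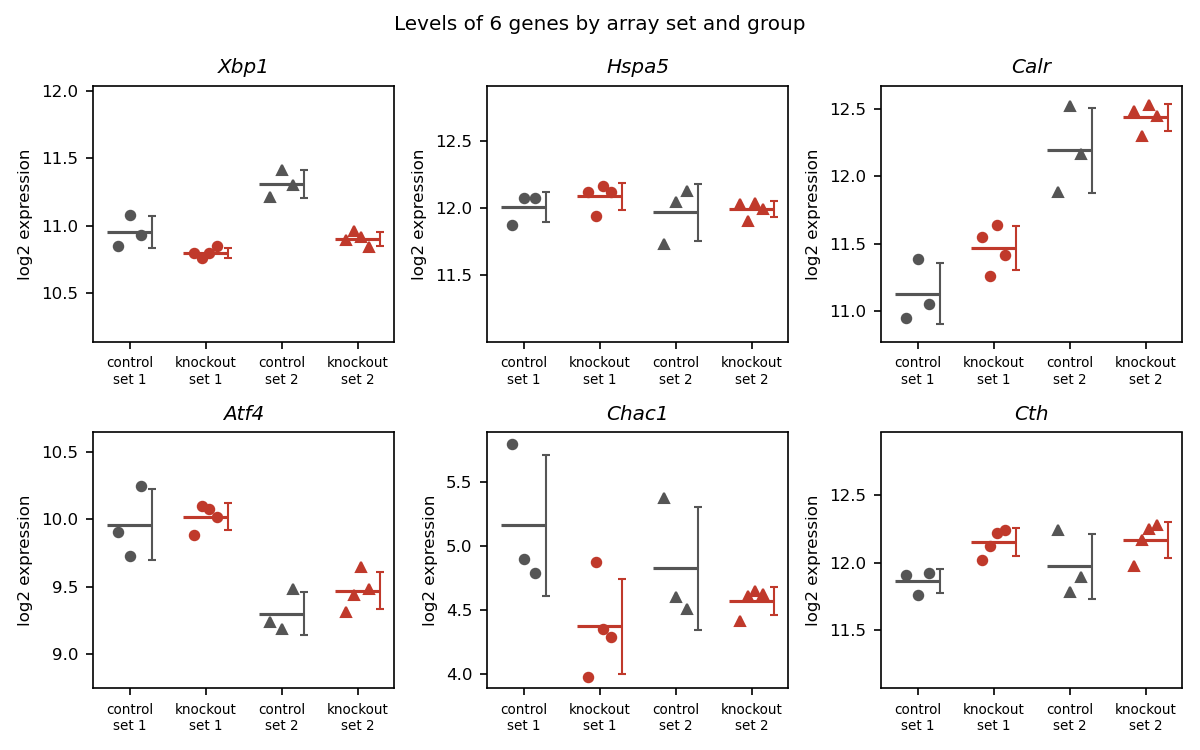
Level (log2 expression, vertical axis, a separate range for each gene) of Xbp1, Hspa5, Calr, Atf4, Chac1 and Cth in the 4 combinations of array set and group; points are arrays, horizontal lines means and bars 1 SD (n = 3 control, n = 4 knockout in each set). Xbp1 separates the groups in set 2, Chac1 has a high control in each set, and Hspa5 and Atf4 overlap in both sets.

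The levels of these genes differed more between the array sets than between the groups. The gap between sets (set 2 minus set 1) had a median size of 0.55 in the ER branch, 0.28 in the ATF4 branch and 0.30 over all genes. The median size of the difference between groups was 0.09, 0.11 and 0.08. The gap between sets exceeded 1 in size for 5 ER genes (Hyou1 1.51, Ern1 1.22, Atf6 1.20, Calr 1.01 and Dnajb11 -1.25) and for Cebpg (-1.32) in the ATF4 branch. These were 26.3% and 4.35% of the branches, against 11.0% of all genes. The sign of the knockout difference was the same in both sets for 16 of 19 ER genes and 15 of 23 ATF4 genes, against 55.3% of all genes. Of the 42 members, 0 had all 8 knockout samples above, and 0 had them below, every control of their set, against 0.774% and 0.538% of all genes. The share of all genes with the groups apart in only 1 set, or for most knockout samples, was not counted. Such separations of single members are thus descriptive.

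Arrays differed in markers of other cell types. Control 1 and control 4 were low in endothelial and Kupffer cell markers and in the ER branch. In a bulk tissue, fewer cells of a type and less RNA per cell cannot be told apart. Averaged over the branch and set against the other arrays of its set, control 1 lay at -0.17 and control 4 at -0.21, the lowest values for the 19 ER genes in their sets. The same arrays were lowest for liver endothelial markers (-0.79 and -0.60 over 10 genes) and for Kupffer cell markers (-0.64 and -0.42 over 10 genes). Other lists differed: control 1 lay at -0.36 and control 4 at -0.07 in stellate cell markers, and at -0.17 and 0.02 in bile duct markers. The mean level of the endothelial markers spanned 6.91 to 7.99 in control and 7.26 to 7.86 in knockout samples of set 1, and 7.47 to 8.19 and 7.82 to 8.21 in set 2. That of the Kupffer markers spanned 7.87 to 8.76 and 7.98 to 8.79 in set 1, and 8.16 to 8.60 and 8.28 to 8.86 in set 2. Of the other arrays, some followed this order and some did not. Control 2, knockout 3 and knockout 7 were high in endothelial (0.48, 0.32 and 0.26) and Kupffer markers (0.40, 0.43 and 0.41). Their ER means were 0.10, 0.12 and 0.15. Knockout 1 was low in endothelial (-0.36) and Kupffer (-0.51) markers with an ER mean of 0.12. Control 3 (0.46 and 0.28) and knockout 2 (0.27 and 0.13) were high in both, with ER means of -0.11 and -0.11. Between the groups 0 of 10 genes passed in the endothelial list and 0 of 10 in the Kupffer list. Positive differences were seen for 4 of 10 endothelial markers (median -0.01) and 9 of 10 Kupffer markers (median 0.07). Without control 1 and control 4 the ER median was 0.03, and 0 members of either branch were called. Without control 6 as well, a setting chosen after seeing the data, it was 0.0038. Array values have no true zero, so no marker can be called absent. The part of these cells in the ER values was not tested.

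Control 6 was the highest array of its set for 9 of 10 pancreatic acinar markers, by 1.40 on average against the other arrays of set 2. Acinar cells are rich in ER chaperones. The mean level of these markers spanned 5.01 to 6.47 in control and 4.95 to 5.34 in knockout samples of set 2. In set 1 it spanned 5.09 to 5.35 and 4.91 to 5.49. Between the groups 0 of these 10 genes passed, and 1 had a positive difference. Their median difference was -0.29, with 0.0008 in set 1 and -0.59 in set 2. The ER branch of control 6 lay at 0.02 against the other arrays of its set, and without this array the ER median was 0.09 with 0 members called. The ATF4 median was then 0.06. B and plasma cell markers, of another secretory type, spanned 5.32 to 5.63 in control and 5.57 to 5.81 in knockout samples of set 1, and 5.29 to 5.44 and 5.30 to 5.54 in set 2. Of these 8 genes 0 passed the threshold and 7 had positive differences (median 0.12).

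**Figure D5:**
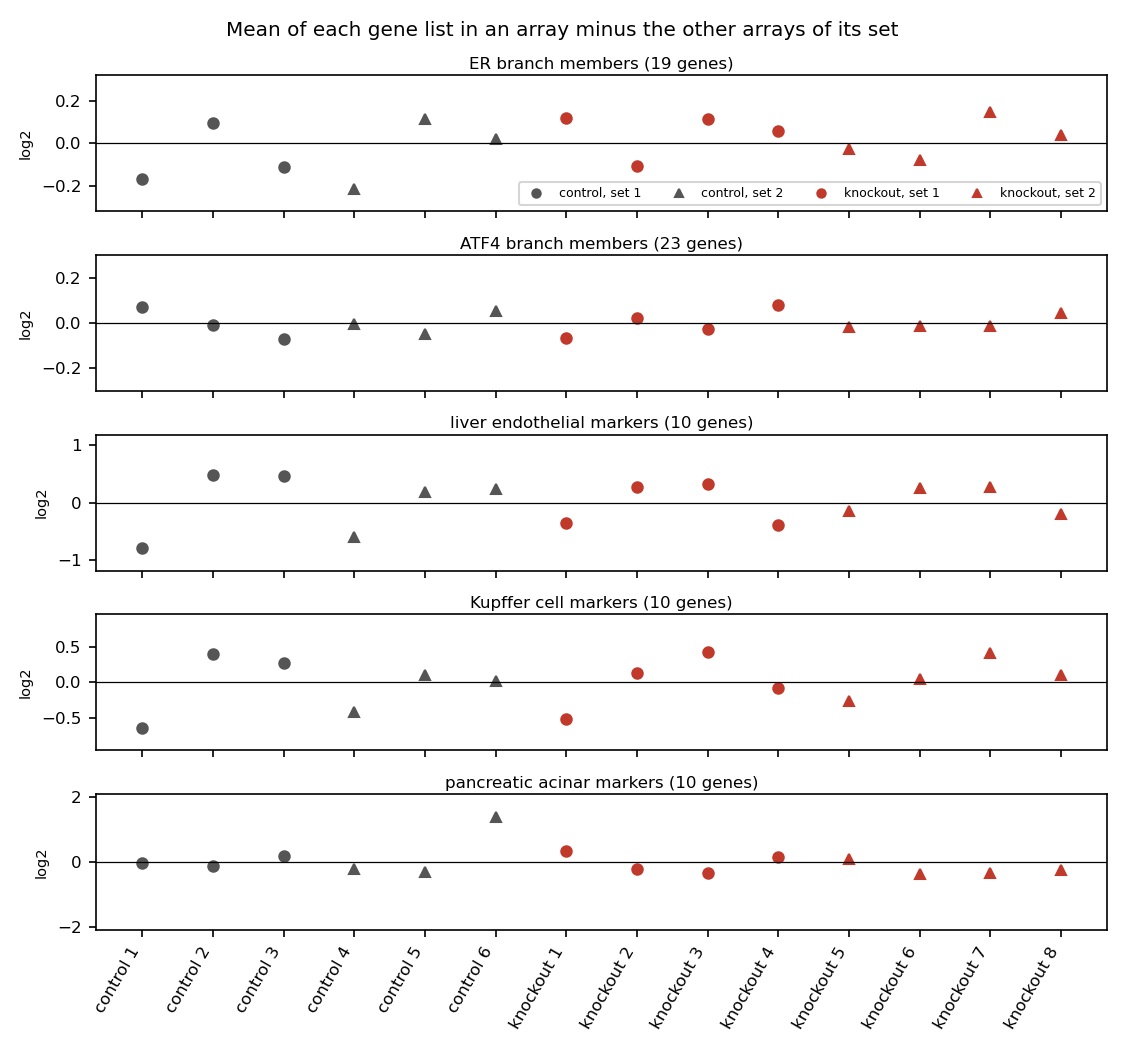
Mean over a gene list in each array minus the mean of the other arrays of its set (log2, vertical axis; each panel has its own range), for the 14 arrays (horizontal axis); grey is control, red knockout, circles set 1 and triangles set 2. Control 1 and control 4 are low in the ER branch, endothelial and Kupffer panels, control 6 is high in the acinar panel, and the ATF4 branch stays within 0.08 of zero.

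Around the members, 2 genes of the wider pathway passed the test. Of 161 further genes measured in 8 lists, limma called 2, against 0.702% of all genes. Fgf21, a liver hormone and known ATF4 and PPAR alpha target, rose by 1.17 ± 0.23 (adjusted p = 0.0335), with 1.62 in set 1 and 0.72 in set 2. In set 1 it ran from 6.57 to 6.85 in controls and from 7.94 to 8.71 in knockout samples, without overlap. In set 2 it ran from 5.27 to 6.16 and from 5.70 to 7.11, with knockout 6 among the controls. Its call held without control 5, control 6 or knockout 6 and was lost without any 1 of the other 11 arrays (adjusted p up to 0.0875). Slc43a1, a transporter of large neutral amino acids, fell by 0.68 ± 0.14 (adjusted p = 0.0335). It averaged 6.47 in control and 5.78 in knockout samples. This call held without control 6, knockout 2, knockout 3, knockout 7 or knockout 8 and was lost without any 1 of the other 9 arrays (adjusted p up to 0.0858). Without the set term neither gene was called.

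Upstream of ATF4, 0 of 15 genes for eIF2 kinases, eIF2 and its exchange factor eIF2B passed. Eif2ak1, which encodes HRI and relays mitochondrial stress, differed by 0.18 ± 0.09 (adjusted p = 0.505). Eif2ak2 (PKR) differed by 0.12 ± 0.09 (adjusted p = 0.711) and Eif2ak4 (GCN2, the sensor of uncharged tRNA) by -0.08 ± 0.09 (adjusted p = 0.844). The eIF2B subunit gene Eif2b3 had the smallest p of this list, 0.32 ± 0.08 (adjusted p = 0.0768). Of 24 other ER folding and regulatory genes 0 passed (median -0.03), and Creb3l3, a liver transcription factor released from the ER like ATF6, had 0.20 ± 0.06 (adjusted p = 0.195). Of 21 genes of ER-associated degradation 0 passed (median 0.03), and Vcp, the ATPase that pulls proteins out of the membrane, had 0.28 ± 0.08 (adjusted p = 0.127). Of 33 genes of ER translocation and export 0 passed (median 0.03), and Sec23a, a coat protein of export vesicles, had 0.30 ± 0.08 (adjusted p = 0.0946).

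In the lists of tRNA synthetases, amino acid transporters, ATF4 and CHOP targets and mitochondrial stress genes, the 2 calls were those already given. Whether ATF4 has a part in either call was not tested. Of 18 aminoacyl-tRNA synthetase genes 0 passed (median 0.05, 13 positive), with the smallest p for Rars (0.20 ± 0.08, adjusted p = 0.403). Of 15 amino acid transporter genes 0 were higher and 1 lower, Slc43a1 (median 0.02). Of 25 other ATF4 and CHOP target genes 1 was higher, Fgf21, and 0 lower (median 0.02). Of 14 genes of the mitochondrial unfolded protein response 0 passed (median 0.04), with the smallest p for the protease gene Htra2 (-0.25 ± 0.09, adjusted p = 0.301).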

How the data were processed

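The authors deposited log2 expression values, 1 row per transcript cluster. Labelling used the Affymetrix WT PLUS kit, per the labels' protocols, and per the submitters' processing notes RMA and Partek were used, without versions. The log2 scale was inferred from the deposited values (2.13 to 13.8). They were used without further normalization. Arrays give no read depth, so their number limits the precision.

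Of 22206 rows, 19572 had 1 gene symbol, 0 had several and 2634 had none. Symbols came from the platform annotation, updated by gene identifier through RefSeq (GRCm38.p6). For 55 genes with over 1 row the brightest row was used, leaving 19505 genes. Array sets were found by average-linkage clustering of correlations over all rows. Group and set were the terms of a linear model fitted by limma 3.58.1 under R 4.3.3 (lmFit, eBayes; 11 residual degrees of freedom), a step checked on simulated data. Knockout 7 and 8 have the same descriptions as knockout 5 and 6, but 0 pairs of arrays were identical and they were counted as separate samples.

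Members, gene lists, the set term and alternatives were chosen with earlier results of these data known. All members are named, with full statistics for those past the threshold and for Hspa5, Xbp1, Ern1, Atf6, Atf4, Ddit3, Asns and Trib3. Of each pathway list up to 3 genes past the threshold, or else the 1 with the smallest p, are named, besides the targeted genes, the eIF2 kinases and Fgf21. Other details were chosen after values were seen. Stellate cell (9 measured) and bile duct (6 measured) markers had 0 genes past the threshold. Motifs were searched in the 250 bases before each start.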

Additional observations from a re-analysis of the deposited data

Results flagged for a closer look

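Of 118 comparisons of an extreme array with the rest of its group, 2 stood apart by Dixon's criterion, which chance alone flags in about 1 of 20 groups. With the set difference removed, Atf5 was low in control 3 (9.86, against 10.2 in the nearest of the other controls), and without it the difference was 0.20. Ppp1r15a was high in knockout 4 (6.09, against 5.64 in the nearest of the other knockout samples), and without it the difference turned from 0.07 to -0.02. Neither gene passed the threshold with all arrays.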

How the results depend on the processing

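The count of 137 genes over all genes was 0 without the set term, 39 with the set as a random block, 2 in set 1 alone, 2 in set 2 alone, 26 without control 1 and control 4, and 10 without control 1, control 4 and control 6 (chosen after seeing the data). It was 67 with knockout 5 averaged with 7 and 6 with 8, 12 without knockout 7 and 8, 223 with dim genes left out, 325 with trend and robust estimation, and 242 and 18 at thresholds of 0.1 and 0.01. With 1 array left out it lay between 44 and 132, falling by over 1.5 times except without control 3, control 6 or knockout 6. At other thresholds the change follows from the setting. For the other settings, those with fewer samples or genes among them, the cause was not tested.

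ER branch calls were 0 in all settings except 1 (Xbp1) with dim genes left out, with trend and robust estimation and at a threshold of 0.1, and ATF4 branch calls were 0 in all. The ATF4 median moved to 0.0688 in set 1 alone and to 0.0788 without control 1, control 4 and control 6, and lay between -0.0199 and 0.0644 with 1 array left out. The calls in the further pathway lists were 0 without the set term, in either set alone, without control 1 and control 4 (with or without control 6) and at a threshold of 0.01. They were 1 with the set as a random block and without knockout 7 and 8, 4 with dim genes left out and at a threshold of 0.1, 7 with trend and robust estimation, and 0 to 2 with 1 array left out. Without control 1 and control 4 the sign turned for 4 members, Hspa5 (-0.04), Syvn1 (-0.06), Ddit3 (-0.05) and Psat1 (-0.0054), and for Eif2ak2 (-0.00513). Without control 6 as well it turned for 9 members, Sdf2l1 (-0.00646), Hspa5, Edem1, Sel1l, Syvn1, Ddit3, Asns, Eif4ebp1 and Aldh18a1, and for Eif2ak2 (-0.0145). Over 1215 member values under 29 alternatives, 66 changed sign, in 20 members, and 22 members kept theirs.

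Same-numbered samples of the groups lay in the same array set, except control 4 and knockout 4. The means of each group and set were removed first, which also removes what samples of a set share. The remaining deviations of same-numbered samples correlated at 0.02 to 0.09. With the replicate number as a block besides the set, 2 genes were called over all genes, 0 in either branch and 0 in the further lists, and the ATF4 median was -0.0206. Signal over background is not known here, which limits what the dim genes Chac1, Phgdh and Psat1 can show.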
